A study of Mus musculus with 12 samples.

Results

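The 37 genes described here encode the machinery that builds ribosomes: the transcription factor MYC, 4 subunits of RNA polymerase I, the core proteins of the small nucleolar ribonucleoproteins (snoRNPs), and nucleolar factors that assemble the small and large ribosomal subunits. They were selected by name, as a functional module, from the 54532 genes of the deposited table, and all 37 were among the 14506 genes with enough counts to be tested. Their RNA was measured by RNA-seq in resident peritoneal macrophages of C57BL/6 mice, 3 libraries in each of 4 groups. MOPS with LPS and HEPES with LPS were cells kept for 24 h in DMEM buffered with the named buffer and given LPS, the bacterial cell-wall component sensed by Toll-like receptor 4, at 10 ng/ml for 2 h. MOPS and HEPES cells were kept in the same media and had no LPS. The design text names pH 6.8 before pH 7.4 and MOPS before HEPES, so the MOPS medium is taken as the acidic one from word order alone. Buffer and pH change together and cannot be told apart. The age and sex of the mice are not given in the labels, nor whether the 3 libraries of a group came from separate animals or cultures, so p-values measure only the spread between these libraries, which may be technical.

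Ribosome production starts in the nucleolus, where RNA polymerase I copies ribosomal DNA into 1 long precursor RNA. Box C/D and box H/ACA snoRNPs then methylate and pseudouridylate that RNA, the small-subunit processome folds and cleaves it, and separate sets of factors carry the 40S and 60S precursors to export. MYC activates many genes of this pathway, and macrophages that respond to microbes need new protein on a large scale. The libraries measure messenger RNA of these factors, not ribosomal RNA or ribosomes.

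The libraries held 20114613 to 24734853 counts. The macrophage markers Adgre1, Itgam, Csf1r, Lyz2, Cd14, Mertk, Gata6 and Timd4 were present in every group, with a summed level of 20394 to 23261 CPM (counts scaled to a common library size) in MOPS with LPS, 32665 to 34318 in HEPES with LPS, 16081 to 16296 in MOPS and 24918 to 26288 in HEPES. Singly they did not all move as the sum. By the test described below, 4 of 8 were higher and 3 lower in MOPS at rest, beside 24.3% and 25.4% of all tested genes. With LPS 2 were higher and 4 lower in MOPS, beside 26.9% each. B cell transcripts moved with the medium and with LPS: the 7 B cell markers summed to 112 to 124 CPM in MOPS with LPS, 23.8 to 27.4 in HEPES with LPS, 189 to 198 in MOPS and 80.9 to 146 in HEPES, with none at 0. The 4 dendritic cell markers summed to 25.8 to 30.2 CPM in MOPS with LPS, 27.7 to 28.8 in HEPES with LPS, 7.66 to 10.0 in MOPS and 5.64 to 6.92 in HEPES, and Siglech was at 0 in HEPES with LPS. Other cell types left little RNA. The 7 granulocyte and mast cell markers summed to 9.02 to 23.0 CPM, with Ly6g at 0 in every group, S100a9 at 0 in all but HEPES with LPS and Mpo at 0 in all but HEPES. The 7 T and NK cell markers summed to 0.11 to 1.15 CPM, with Ncr1 at 0 in every group and Cd3d at 0 in MOPS, and the 5 mesothelial, stromal and endothelial markers to 3.58 to 6.43 CPM, with none at 0. In bulk samples a smaller share of a cell type and less RNA per cell cannot be told apart, and the part of these cells in the results below was not tested.

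Levels between genes were compared in FPKM, the authors' counts divided by gene length and by a scaled library size. Among the 37 genes in HEPES, Npm1 was highest with a mean of 71.1 ± 1.29 FPKM (SD, n = 3), followed by Nhp2 at 37.6 ± 1.01 and Ncl at 25.7 ± 0.664. The lowest were Rrp1b at 1.65 ± 0.0509, Wdr12 at 1.02 ± 0.0516 and Polr1e at 0.994 ± 0.162 FPKM. This order rests on the annotated lengths, which were 2665 bases for Npm1, 10188 for Ncl and 11955 for Wdr12. In CPM, Ncl at 269 stood above Npm1 at 194 in HEPES. Npm1 and Ncl encode nucleophosmin and nucleolin, abundant nucleolar proteins, and Nhp2 a core protein of box H/ACA snoRNPs. Rrs1 averaged 80.5 ± 0.538 FPKM in HEPES with LPS and 18.5 ± 1.69 FPKM in HEPES, which placed it second to Npm1 (96.9 ± 3.10 FPKM) in the LPS-treated HEPES cells. Together the 37 genes took 0.218 to 0.224% of all counts in MOPS with LPS, 0.243 to 0.246% in HEPES with LPS, 0.212 to 0.215% in MOPS and 0.194 to 0.197% in HEPES. These shares use library totals alone, which is among the scalings compared below, and the most abundant genes weigh most in them. By this measure the HEPES libraries with LPS stood above all others.

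Stretches upstream of 6 members are shown here because their behaviour spans the results: Ddx21, Ppan, Nop2 and Bysl responded less to LPS in MOPS than in HEPES, Nop10 responded more, and Dkc1 was lowered by LPS. Each is the 100 bases before the gene's start, read 5′ to 3′ on the gene's strand from the RefSeq promoters of build GRCm38.p6, which held 31 of the 37 genes. Capitals mark the E-box CACGTG, the motif to which MYC and MAX are known to bind. The positions are chr10:62602299-62602398 (-) for Ddx21, chr9:20888075-20888174 (+) for Ppan, chr6:125131783-125131882 (+) for Nop2, chr17:47611493-47611592 (-) for Bysl, chr2:112261826-112261925 (+) for Nop10 and chrX:75095754-75095853 (+) for Dkc1.
Ddx21: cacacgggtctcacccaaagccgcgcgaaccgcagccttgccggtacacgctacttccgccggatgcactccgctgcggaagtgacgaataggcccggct
Ppan: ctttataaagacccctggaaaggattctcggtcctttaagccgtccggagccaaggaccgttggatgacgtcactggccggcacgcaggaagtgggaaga
Nop2: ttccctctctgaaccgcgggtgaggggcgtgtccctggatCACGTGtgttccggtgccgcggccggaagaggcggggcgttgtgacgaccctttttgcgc
Bysl: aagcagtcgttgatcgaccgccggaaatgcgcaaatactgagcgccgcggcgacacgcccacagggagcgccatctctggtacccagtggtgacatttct
Nop10: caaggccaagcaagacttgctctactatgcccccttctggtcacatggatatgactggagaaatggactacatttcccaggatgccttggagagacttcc
Dkc1: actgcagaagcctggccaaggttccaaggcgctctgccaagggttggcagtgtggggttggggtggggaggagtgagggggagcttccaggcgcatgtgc
Of these stretches the one of Nop2 held the motif, 60 bases before the start. Over the whole window of 250 bases before to 50 after the start, 5 of 31 members held CACGTG, which is its own reverse complement and so was read on both strands at once. The other 4 were Pes1, Utp20, Mybbp1a and Tsr1, each within the 50 bases after the start. The share of members, 16.1%, stood beside 11.8% of the 10158 tested genes with a promoter and 8.09% of all 27025 genes in the promoter table. A match is a run of letters and not a measured binding site, and its absence says only that these letters are not in this window.

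LPS was compared with no LPS in each medium, which asks how a 2 h stimulus changed the ribosome-building genes in each medium. Most of them were higher with LPS: 28 of 37 in MOPS and 31 of 37 in HEPES, with 3 lower in each, and median log2 changes of 0.49 in MOPS and 0.75 in HEPES. Of all tested genes, 34.1% were higher and 34.9% lower in MOPS, and 35.6% were higher and 41.2% lower in HEPES, with median log2 changes of -0.035 and -0.084. The 27 genes higher in both media were 27 of the 28 in MOPS and 27 of the 31 in HEPES. The same overlap was not counted over all tested genes. These comparisons share no library but come from the same fit. Dkc1, Nat10 and Polr1a were lower in both. Calls are at a Benjamini-Hochberg adjusted p under 0.05 over all 14506 genes by edgeR's quasi-likelihood test, and named values are log2 changes ± standard error.

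The direction of the LPS changes rests on how libraries are scaled. Composition factors (TMM, the setting used throughout) assume that most genes do not change. When library totals alone were used, the median of all genes moved to -0.55 in MOPS and -0.67 in HEPES, and the split of the 37 genes became 12 higher and 12 lower in MOPS and 21 higher and 9 lower in HEPES. Upper-quartile factors gave 27 higher and 7 lower in MOPS and 30 higher and 4 lower in HEPES. Over all tested genes, 18.0% of the calls in MOPS were higher with library totals, 38.5% with upper-quartile factors and 49.4% with TMM, and in HEPES 20.6%, 38.3% and 46.4%. Relative to the median of all genes, the members stood 0.53 higher in MOPS and 0.84 higher in HEPES, with 32 and 34 of 37 above that median. These values were the same under each of the 4 scalings by construction. A scaling moves all genes of a comparison by nearly the same amount, so this sameness is no test of the direction. Changes below are given with TMM, and genes whose direction turned or whose call was lost with library totals are named.

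**Figure D1:**
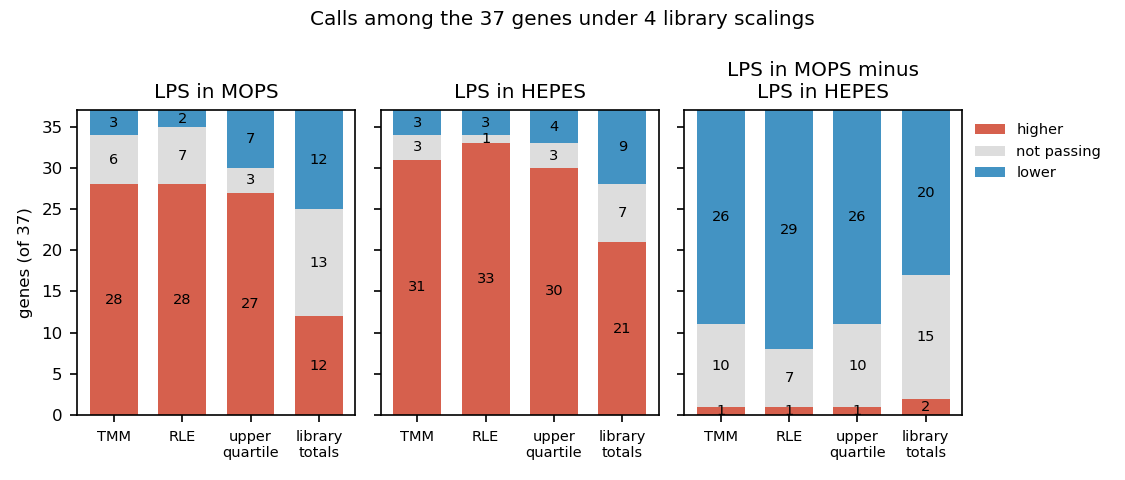
Number of the 37 genes called higher, not passing or lower (y axis) under 4 library scalings (x axis), for the LPS change in MOPS, the LPS change in HEPES and the difference between these changes. With library totals alone 12 of 37 were higher in MOPS and 21 in HEPES, while 20 to 29 of 37 were lower in the difference under every scaling.

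Myc itself rose with LPS. It had 55.9, 52.0 and 52.3 CPM in the MOPS libraries with LPS, against 26.5, 22.2 and 23.9 CPM in MOPS, a change of 1.14 ± 0.066 (adjusted p = 8.43e-16). In HEPES with LPS it had 68.7, 72.8 and 69.1 CPM, against 20.7, 23.3 and 25.3 CPM in HEPES (1.61 ± 0.064, adjusted p = 6.14e-20). No LPS library overlapped an untreated one, and the HEPES libraries with LPS lay above the MOPS libraries with LPS. With library totals alone the changes were 0.63 in MOPS and 1.02 in HEPES. Myc is ENSMUSG00000022346 on chromosome 15 from 61985391 to 61990374, in the mm10 coordinates of the table.

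The RNA polymerase I subunits did not move as 1 unit. Polr1a, the largest subunit and part of the active site, had 46.8, 49.7 and 45.5 CPM in MOPS with LPS, against 51.7, 48.7 and 54.0 CPM in MOPS (-0.12 ± 0.052, adjusted p = 0.0449). That call was lost without MOPS with LPS replicate 7 or 9 or MOPS replicate 1 or 3 (adjusted p = 0.0861 to 0.199), with RLE factors (adjusted p = 0.0515) and in DESeq2 (adjusted p = 0.0849). In HEPES with LPS it had 41.2, 42.5 and 44.5 CPM, against 49.4, 49.2 and 47.7 CPM in HEPES (-0.19 ± 0.053, adjusted p = 0.00164), a call lost without HEPES with LPS replicate 10 (adjusted p = 0.0611). Polr1b, the other large subunit of the active site, rose by 0.37 ± 0.072 in MOPS and 0.60 ± 0.069 in HEPES, though with library totals it turned to -0.15 in MOPS and its call in HEPES was lost (0.020, adjusted p = 0.792). Polr1c, a subunit shared with RNA polymerase III, rose by 0.57 ± 0.074 in MOPS, a call lost with library totals (0.059, adjusted p = 0.464), and by 0.82 ± 0.071 in HEPES. Polr1e, a subunit specific to RNA polymerase I, had 13.7, 11.9 and 12.4 CPM in MOPS with LPS, against 6.52, 5.16 and 5.74 CPM in MOPS (1.13 ± 0.12). It had 8.44, 7.40 and 7.45 CPM in the HEPES libraries with LPS, against 3.27, 4.54 and 4.09 CPM in HEPES (0.97 ± 0.13). Every LPS library lay above every untreated one, though this member had the lowest FPKM of the 37 in HEPES and the largest standard errors of the 4 subunits.

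Box C/D snoRNPs place 2′-O-methyl groups on ribosomal RNA, and the 3 members that encode core proteins of these snoRNPs rose in both media with TMM. Nop58 was at 105, 95.2 and 97.3 CPM in MOPS with LPS, against 32.9, 34.0 and 35.3 CPM in MOPS, a 2.91-fold rise (1.54 ± 0.050, adjusted p = 1.42e-22). In HEPES with LPS it was at 140.3, 139 and 144 CPM, against 30.8, 31.6 and 28.5 CPM in HEPES, a 4.66-fold rise (2.22 ± 0.050, adjusted p = 5.10e-27), the largest LPS change of any member. Its paralogue Nop56 rose by 1.13 ± 0.058 in MOPS and 1.47 ± 0.058 in HEPES. Fbl, the methyltransferase of the complex, rose by 0.56 ± 0.047 in MOPS and 0.60 ± 0.048 in HEPES, but with library totals both of its calls were lost (0.051, adjusted p = 0.322 in MOPS and 0.019, adjusted p = 0.710 in HEPES). Among these 3 members the enzyme thus had the smallest change with TMM, and no LPS library of Nop58 overlapped an untreated one. Nop58 is ENSMUSG00000026020 on chromosome 1 from 59684971 to 59719044.

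The box H/ACA snoRNP, which converts uridine to pseudouridine and whose core proteins also belong to telomerase, was split. Its catalytic subunit gene Dkc1 fell to 7.76, 6.86 and 7.33 CPM in MOPS with LPS, against 13.8, 14.9 and 15.8 CPM in MOPS (-1.02 ± 0.096, adjusted p = 6.43e-11). HEPES libraries with LPS had 10.3, 10.5 and 9.51 CPM, against 13.2, 12.8 and 14.3 CPM in HEPES (-0.41 ± 0.093, adjusted p = 0.000218). The LPS and untreated libraries did not overlap in either medium. Gar1 rose by 0.94 ± 0.066 in MOPS and 1.20 ± 0.063 in HEPES, and Nhp2 by 0.81 ± 0.047 and 0.69 ± 0.047. Nop10, the smallest protein of the complex, had 28.4, 26.1 and 25.2 CPM in MOPS with LPS, against 21.3, 20.2 and 19.0 CPM in MOPS (0.40 ± 0.070, but -0.12 with library totals). In HEPES it did not pass the test, with 19.3, 22.0 and 21.8 CPM with LPS, against 20.7, 22.0 and 21.0 CPM without (-0.013 ± 0.072, adjusted p = 0.873), and with library totals it was lower (-0.60). Dkc1 is ENSMUSG00000031403 on chromosome X from 75095854 to 75109777. Its exons overlap those of Mpp1 on the opposite strand by 45 bases, with 3316 counts of Dkc1 over the 12 libraries and 51684 of Mpp1. The strand setting of the counting is not given in the sources used here.

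Among the 9 small-subunit factors, 5 were higher and 1 lower in MOPS, and 8 were higher and 1 lower in HEPES. Tsr1, a GTPase-like protein of late 40S precursors, had 51.0, 50.9 and 47.1 CPM in MOPS with LPS, against 23.6, 23.2 and 24.4 CPM in MOPS (1.06 ± 0.056). It reached 74.4, 70.6 and 76.9 CPM in HEPES with LPS, against 21.2, 21.3 and 23.1 CPM in HEPES (1.76 ± 0.055, adjusted p = 3.37e-23). Its exons share 1240 bases with Srr on the opposite strand, with 10758 counts of Tsr1 and 1440 of Srr. Rrp9, which binds the U3 snoRNA, rose by 0.80 ± 0.067 in MOPS and 1.24 ± 0.064 in HEPES. Nop14 (0.44 ± 0.049 and 0.81 ± 0.049), Noc4l (0.47 ± 0.089 and 0.65 ± 0.086) and Heatr1 (0.30 ± 0.045 and 0.72 ± 0.044) of the processome rose in MOPS and HEPES with TMM, and in MOPS each turned below 0 with library totals, Nop14 to -0.071, Noc4l to -0.046 and Heatr1 to -0.21. In HEPES the call of Noc4l was then lost as well (0.070, adjusted p = 0.454).

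Bysl, Utp20 and Rrp12 of the same class did not pass in MOPS and rose in HEPES. Bysl, which encodes bystin and is needed for 40S maturation, had 17.3, 16.7 and 16.8 CPM in MOPS with LPS, against 18.8, 17.05 and 15.4 CPM in MOPS (-0.014 ± 0.079, adjusted p = 0.881). HEPES libraries with LPS had 24.7, 26.1 and 26.8 CPM, against 15.0, 15.2 and 16.4 CPM in HEPES (0.74 ± 0.076, adjusted p = 3.11e-10). The groups overlapped in MOPS and were apart in HEPES. Utp20, a large scaffold protein, was at 0.016 ± 0.051 in MOPS and 0.47 ± 0.051 in HEPES, and Rrp12, which takes part in the export of 40S precursors, at 0.15 ± 0.073 and 0.69 ± 0.072. With library totals Bysl was lower in MOPS (-0.53), as were Utp20 (-0.50) and Rrp12 (-0.36), and in HEPES Utp20 turned to -0.11 while the calls of Bysl (0.15, adjusted p = 0.0686) and Rrp12 (0.11, adjusted p = 0.171) were lost. Nat10, the enzyme that acetylates cytidines of 18S ribosomal RNA, fell to 18.2, 22.2 and 21.9 CPM in MOPS with LPS, against 30.7, 29.0 and 31.8 CPM in MOPS (-0.55 ± 0.075). It had 19.7, 20.9 and 23.3 CPM in HEPES with LPS, against 27.6, 26.3 and 29.5 CPM in HEPES (-0.39 ± 0.076). Both modifying enzymes that fell, Dkc1 and Nat10, fell under every scaling tried.

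Among the 10 large-subunit factors, 7 were higher in MOPS and 8 in HEPES, with none lower. Rrs1, which helps to build the 5S ribonucleoprotein into the 60S precursor, had 115, 113 and 121 CPM in MOPS with LPS, against 36.3, 37.2 and 38.7 CPM in MOPS, a 3.11-fold rise (1.64 ± 0.052, adjusted p = 7.22e-23). It had 166, 164 and 166 CPM in HEPES with LPS, against 38.1, 42.6 and 35.6 CPM in HEPES, a 4.26-fold rise (2.09 ± 0.051, adjusted p = 4.28e-26). Its LPS libraries lay far above the untreated ones in both media. Rrs1 is ENSMUSG00000061024 on chromosome 1 from 9545408 to 9547455. Ppan, a factor of early 60S assembly, rose by 0.92 ± 0.056 in MOPS and 1.54 ± 0.056 in HEPES. Nop2, a methyltransferase of 28S ribosomal RNA, rose by 0.58 ± 0.057 and 1.09 ± 0.056. Noc3l was at 0.61 ± 0.069 in MOPS and 1.06 ± 0.066 in HEPES, and its partner Noc2l at 0.24 ± 0.047 and 0.45 ± 0.046, which with library totals turned to -0.27 and -0.13. Nop16 rose by 0.55 ± 0.066 in MOPS and 0.75 ± 0.068 in HEPES. With library totals the MOPS calls of Nop2 (0.068, adjusted p = 0.280), Noc3l (0.10, adjusted p = 0.181) and Nop16 (0.036, adjusted p = 0.622) were lost.

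The PeBoW complex of Pes1, Bop1 and Wdr12, which acts on the 60S precursor, did not move together either. Bop1 rose by 0.57 ± 0.053 in MOPS, a call lost with library totals (0.055, adjusted p = 0.350), and by 0.96 ± 0.055 in HEPES. Pes1 was at 0.017 ± 0.047 in MOPS (adjusted p = 0.766) and 0.21 ± 0.046 in HEPES (adjusted p = 0.000187), and with library totals it was lower in both, at -0.50 and -0.38. With upper-quartile factors its call in HEPES was lost (0.057, adjusted p = 0.257) and it was lower in MOPS (-0.12). Wdr12 did not pass in MOPS (-0.20 ± 0.097, adjusted p = 0.0702) or in HEPES (0.18 ± 0.097, adjusted p = 0.0858). Rrp1b, a nucleolar 60S factor, did not pass either, at -0.16 ± 0.083 and 0.16 ± 0.083. With library totals both were lower in both media, Wdr12 at -0.71 in MOPS and -0.40 in HEPES and Rrp1b at -0.68 and -0.42. In RLE scaling both were called higher in HEPES, at 0.23 and 0.20. Both stayed between 11.5 and 15.7 CPM in all 12 libraries.

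All 6 nucleolar organisers and regulators rose in both media with TMM. Ddx21, a DEAD-box helicase that acts in ribosomal RNA transcription and processing, had 227, 220.3 and 203 CPM in MOPS with LPS, against 116, 118 and 118 CPM in MOPS (0.89 ± 0.041, adjusted p = 1.46e-18). It had 292, 285 and 285 CPM in HEPES with LPS, against 98.4, 101 and 101 CPM in HEPES (1.52 ± 0.041, adjusted p = 6.46e-25). In each medium every LPS library lay above every untreated one. Mybbp1a, a nucleolar MYB-binding protein, rose by 0.69 ± 0.039 in MOPS and 1.22 ± 0.039 in HEPES. Nolc1, a chaperone of snoRNPs, rose by 0.48 ± 0.052 and 1.19 ± 0.053, and Gnl3, the GTPase nucleostemin, by 0.49 ± 0.045 and 1.08 ± 0.046, and with library totals both were just under 0 in MOPS, at -0.029 and -0.019. The abundant Ncl rose by 0.47 ± 0.035 in MOPS and 0.65 ± 0.035 in HEPES, and Npm1 by 0.42 ± 0.038 and 0.41 ± 0.038. With library totals Ncl was at -0.040 in MOPS and its call in HEPES was lost (0.066, adjusted p = 0.0754), and Npm1 was at -0.10 in MOPS and -0.17 in HEPES.

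**Figure D2:**
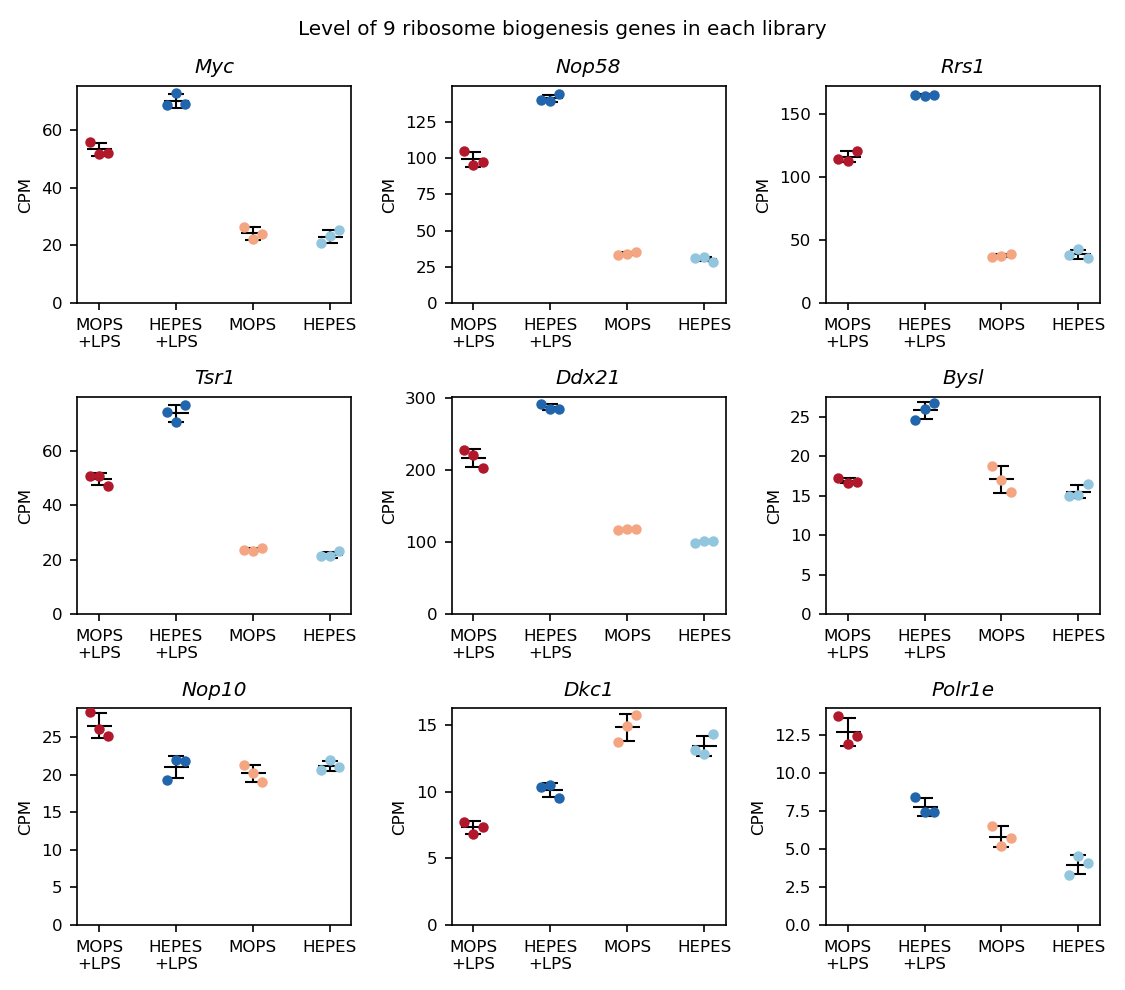
Level in CPM with TMM scaling (y axis) of 9 genes in each library (points), with the group mean and SD (bars, n = 3), for MOPS with LPS, HEPES with LPS, MOPS and HEPES. Myc, Nop58, Rrs1, Tsr1 and Ddx21 were highest in HEPES with LPS, Nop10 and Polr1e in MOPS with LPS, and Dkc1 was lower in the LPS groups than in the untreated ones.

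**Figure D3:**
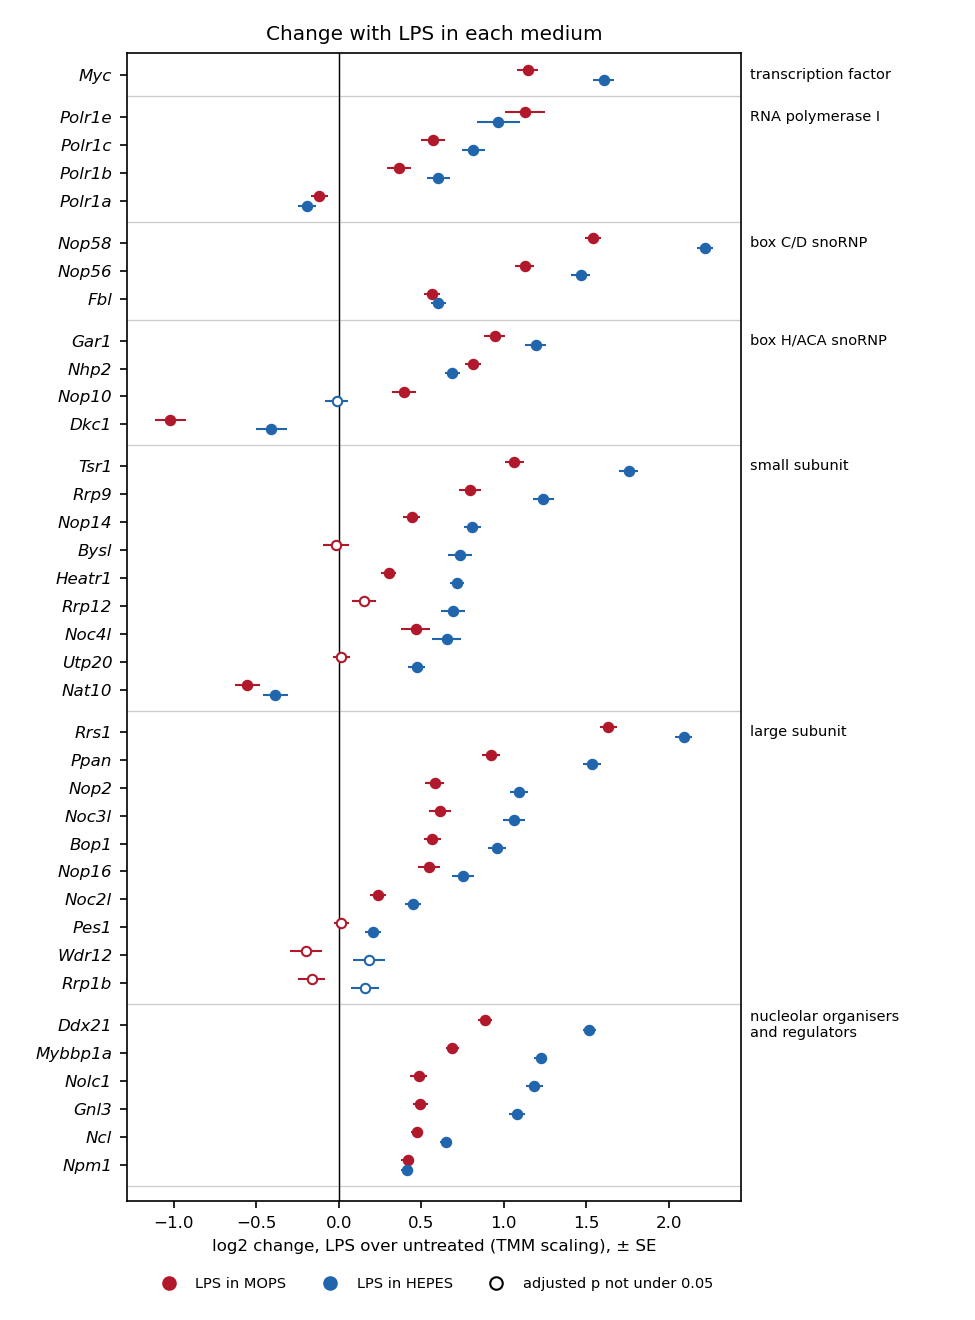
Change with LPS (x axis, log2 scale, ± SE) of each gene, grouped by role, in MOPS (red) and in HEPES (blue), with open points where the adjusted p was not under 0.05. Nop58 and Rrs1 lie farthest to the right, at 2.22 and 2.09 in HEPES, and for most genes the red point lies left of the blue one.

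The difference between the LPS changes was tested directly as the change in MOPS minus that in HEPES, which asks whether the medium altered the response. For 26 of 37 genes the LPS change was lower in MOPS and for 1 it was higher, with a median of -0.38. Of all tested genes 17.6% were lower and 21.9% higher, with a median of 0.060. The direction was kept under all 4 scalings, with 20 lower and 2 higher when library totals alone were used, where Nhp2 joined Nop10 (0.20) and the calls of Gar1, Ncl, Noc2l, Pes1, Rrp1b and Wdr12 were lost (adjusted p = 0.0731 to 0.171). Over all tested genes 66.4% of the calls were higher with library totals and 55.5% with TMM. Leaving out each of the 12 libraries in turn gave 23 to 29 lower.

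The largest differences were those of Bysl (-0.75 ± 0.11, adjusted p = 1.71e-06), Nolc1 (-0.70 ± 0.074, adjusted p = 5.80e-09), Tsr1 (-0.69 ± 0.079), Nop58 (-0.68 ± 0.071) and Ddx21 (-0.63 ± 0.057, adjusted p = 2.97e-10). In fold terms Nop58 rose 2.91-fold in MOPS and 4.66-fold in HEPES, and Tsr1 2.09-fold and 3.38-fold. Myc was lower by the same test (-0.46 ± 0.092, adjusted p = 0.000169), as was Rrs1 (-0.45 ± 0.072). Of the large-subunit factors 9 of 10 were lower, the exception being Nop16 (-0.20 ± 0.095, adjusted p = 0.0904), and of the small-subunit factors 7 of 9, the exceptions being Noc4l (-0.19 ± 0.12) and Nat10 (-0.17 ± 0.11). Nop16 was called lower with RLE factors (adjusted p = 0.0442). The same held without MOPS with LPS replicate 7 or HEPES with LPS replicate 10 (adjusted p = 0.0318 and 0.0202). Wdr12 (-0.38 ± 0.14) and Rrp1b (-0.32 ± 0.12) passed in neither medium in the fit used throughout, but did in some alternatives given above. Both lay below 0 in MOPS and above 0 in HEPES with TMM, and with library totals below 0 in both. For the difference, the call of Wdr12 was lost without MOPS replicate 2 or HEPES replicate 6 (adjusted p = 0.0948 and 0.0662). That of Rrp1b was lost without MOPS replicate 3 or HEPES replicate 4 (adjusted p = 0.0740 and 0.0609). The call of Pes1 (-0.19 ± 0.066) was lost without MOPS replicate 2 or HEPES replicate 4 (adjusted p = 0.0660 and 0.0624). For Dkc1 the fall was deeper in MOPS (-0.61 ± 0.13, adjusted p = 0.000468).

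None of the 4 RNA polymerase I subunits passed this test with TMM and all 12 libraries, but Polr1b and Polr1c lay close to the threshold. Polr1b was at -0.24 ± 0.099 (adjusted p = 0.0566) and Polr1c at -0.24 ± 0.10 (adjusted p = 0.0576), and both were called by DESeq2 (adjusted p = 0.0496 and 0.0489) and with RLE factors (adjusted p = 0.0273 and 0.0291). Polr1b was also called without MOPS with LPS replicate 7 or HEPES with LPS replicate 11 or 12 (adjusted p = 0.0219 to 0.0341), and Polr1c without MOPS with LPS replicate 7, MOPS replicate 3 or HEPES with LPS replicate 10 or 11 (adjusted p = 0.00813 to 0.0462). Polr1a was at 0.074 ± 0.074 and Polr1e at 0.16 ± 0.18, with 95% intervals of -0.10 to 0.25 and -0.25 to 0.58. Fbl (-0.040 ± 0.067, interval -0.19 to 0.11), Npm1 (0.0036 ± 0.054, interval -0.12 to 0.13) and Nhp2 (0.12 ± 0.066, interval -0.029 to 0.28) did not pass. Nop10 was the member with a higher LPS change in MOPS (0.41 ± 0.10, adjusted p = 0.00155). The box H/ACA partners thus held members on each side of 0, with Gar1 at -0.25 ± 0.091 (adjusted p = 0.0290), a call lost when any 1 of 5 libraries was left out, which were MOPS with LPS replicate 9, MOPS replicates 1 and 2 and HEPES replicates 4 and 5 (adjusted p = 0.0631 to 0.0775).

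At rest, the media were compared to ask what 24 h in the MOPS medium did before any LPS. Of the 37 genes 16 were higher in MOPS and 1 lower, with a median of 0.14, while 24.3% of all tested genes were higher and 25.4% lower, with a median of -0.014. The differences were small. Gnl3 had 60.1, 59.7 and 61.0 CPM in MOPS, against 42.6, 43.6 and 40.3 CPM in HEPES (0.51 ± 0.046, adjusted p = 5.60e-11). Bop1 had 30.2, 30.4 and 31.0 CPM in MOPS, against 22.1, 23.1 and 23.9 CPM in HEPES (0.41 ± 0.055, adjusted p = 2.81e-07), and Nolc1 had 49.2, 51.5 and 51.3 CPM in MOPS, against 36.4, 37.6 and 42.1 CPM in HEPES (0.39 ± 0.053, adjusted p = 2.90e-07). In these 3 genes, with differences among the largest of the 37, every MOPS library was above every HEPES library. Such separation was not counted over all tested genes. Polr1e had 0.55 ± 0.13 (adjusted p = 0.000892), the largest change of the 37 on the smallest counts.

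By role, the box C/D proteins were all higher in MOPS at rest, Fbl by 0.18 ± 0.047, Nop56 by 0.17 ± 0.060 and Nop58 by 0.17 ± 0.053, but the call of Nop56 was lost without MOPS replicate 1 or 2 or HEPES replicate 6 (adjusted p = 0.0617 to 0.177), and that of Nop58 without MOPS replicate 3 or HEPES replicate 6 (adjusted p = 0.0507 and 0.0818). None of the 4 box H/ACA genes passed. Of the small-subunit factors Utp20 (0.21 ± 0.050), Rrp12 (0.20 ± 0.072) and Nop14 (0.15 ± 0.050) were higher, of which Rrp12 was lost without MOPS replicate 2 or HEPES replicate 4 or 6 and Nop14 without MOPS replicate 1 or HEPES replicate 4. Of the large-subunit factors Ppan (0.32 ± 0.059), Nop16 (0.29 ± 0.068) and Nop2 (0.14 ± 0.058) were higher beside Bop1, and the call of Nop2 was lost when any 1 of the 6 libraries but HEPES replicate 6 was left out (adjusted p = 0.0539 to 0.200). Ddx21 (0.23 ± 0.041), Mybbp1a (0.18 ± 0.039) and Ncl (0.16 ± 0.035) were higher and Npm1 was lower, with 172, 171 and 177 CPM in MOPS, against 197, 196 and 190.1 CPM in HEPES (-0.16 ± 0.038, adjusted p = 0.000626). Myc did not pass (0.065 ± 0.069, adjusted p = 0.461, 95% interval -0.094 to 0.22). With upper-quartile scaling 15 of the 37 were higher and 5 lower, and without HEPES replicate 4 there were 13 higher and 2 lower.

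With LPS present the order was turned. Of the 37 genes 25 were lower in MOPS with LPS than in HEPES with LPS and 4 were higher, with a median of -0.29, while 26.9% of all tested genes were higher and 26.9% lower, with a median of 0.0047. With library totals alone 22 were lower and 6 higher, where the median of all genes was 0.097 and 62.4% of all calls were higher, beside 50.04% with TMM. Bysl (-0.61 ± 0.078, adjusted p = 7.67e-08), Tsr1 (-0.57 ± 0.052, adjusted p = 8.12e-11), Noc3l (-0.56 ± 0.066), Nop58 (-0.51 ± 0.046) and Rrs1 (-0.51 ± 0.048) had the largest differences among the 25 lower genes. Myc averaged 53.4 ± 2.17 CPM in the MOPS libraries with LPS and 70.2 ± 2.28 CPM in those of HEPES (SD, n = 3 each; -0.40 ± 0.061, adjusted p = 2.35e-06). Heatr1, which also takes part in RNA polymerase I transcription, had 75.9, 80.2 and 79.0 CPM in MOPS with LPS, against 109.7, 106 and 107 CPM in the HEPES libraries (-0.46 ± 0.045). For these 7 genes every MOPS library with LPS lay below every HEPES library with LPS. Most of them were named for the size of this difference, which by itself favours such separation. It was not counted over all tested genes.

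Of the 9 small-subunit genes 8 were lower in MOPS with LPS, with Rrp9 at -0.47 ± 0.063, Rrp12 at -0.33 ± 0.073, Noc4l at -0.30 ± 0.087, Utp20 at -0.25 ± 0.052 and Nop14 at -0.22 ± 0.049, and Nat10 did not pass (-0.034 ± 0.081). Of the 10 large-subunit genes 6 were lower, Nop2 (-0.37 ± 0.055), Ppan (-0.29 ± 0.053), Pes1 (-0.28 ± 0.048) and Noc2l (-0.19 ± 0.047) beside Noc3l and Rrs1, whereas Bop1 (0.013 ± 0.053), Nop16 (0.090 ± 0.067), Wdr12 (-0.17 ± 0.10) and Rrp1b (-0.16 ± 0.086) did not pass. Ddx21 (-0.41 ± 0.040), Mybbp1a (-0.35 ± 0.039), Nolc1 (-0.31 ± 0.052) and Npm1 (-0.16 ± 0.038) were lower, and Gnl3 (-0.073 ± 0.044) and Ncl (-0.020 ± 0.035) did not pass. In the box H/ACA group Dkc1 (-0.47 ± 0.10) and Gar1 (-0.39 ± 0.062) were lower, Nhp2 did not pass (0.029 ± 0.046), and Nop10 was higher (0.34 ± 0.073, adjusted p = 0.000233). Nop56 (-0.17 ± 0.056) was lower beside Nop58, a call lost without MOPS with LPS replicate 9 (adjusted p = 0.0936). Scaling by library totals ended the calls of Nop56 (-0.078, adjusted p = 0.236), Noc2l (-0.10, adjusted p = 0.0776) and Npm1 (-0.067, adjusted p = 0.135).

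RNA polymerase I was divided between the media under LPS. Polr1b had 19.8, 18.2 and 19.7 CPM in MOPS with LPS, against 26.1, 24.3 and 25.1 CPM in the HEPES libraries (-0.39 ± 0.071, adjusted p = 2.35e-05), and Polr1c was at -0.35 ± 0.072. Polr1e was higher in MOPS with LPS (0.71 ± 0.12, adjusted p = 9.22e-06), with each MOPS library above each HEPES library. The higher calls of Polr1a (0.15 ± 0.055) and Fbl (0.14 ± 0.047) were each lost when any 1 library of these groups but MOPS with LPS replicate 9 was left out (adjusted p = 0.0646 to 0.320), which left 2 higher calls. Of the 16 genes higher in MOPS at rest, 10 were lower in MOPS with LPS, beside 25 of all 37 (67.6%). Of those 25, 14 had no call at rest and 1 was lower there. The same overlap was not counted over all tested genes. These comparisons share no library but come from the same fit. Beside them, the B cell markers were higher in MOPS, 4 of 7 at rest and 7 of 7 with LPS, as summed above, and their part in the differences between media was not tested.

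**Figure D4:**
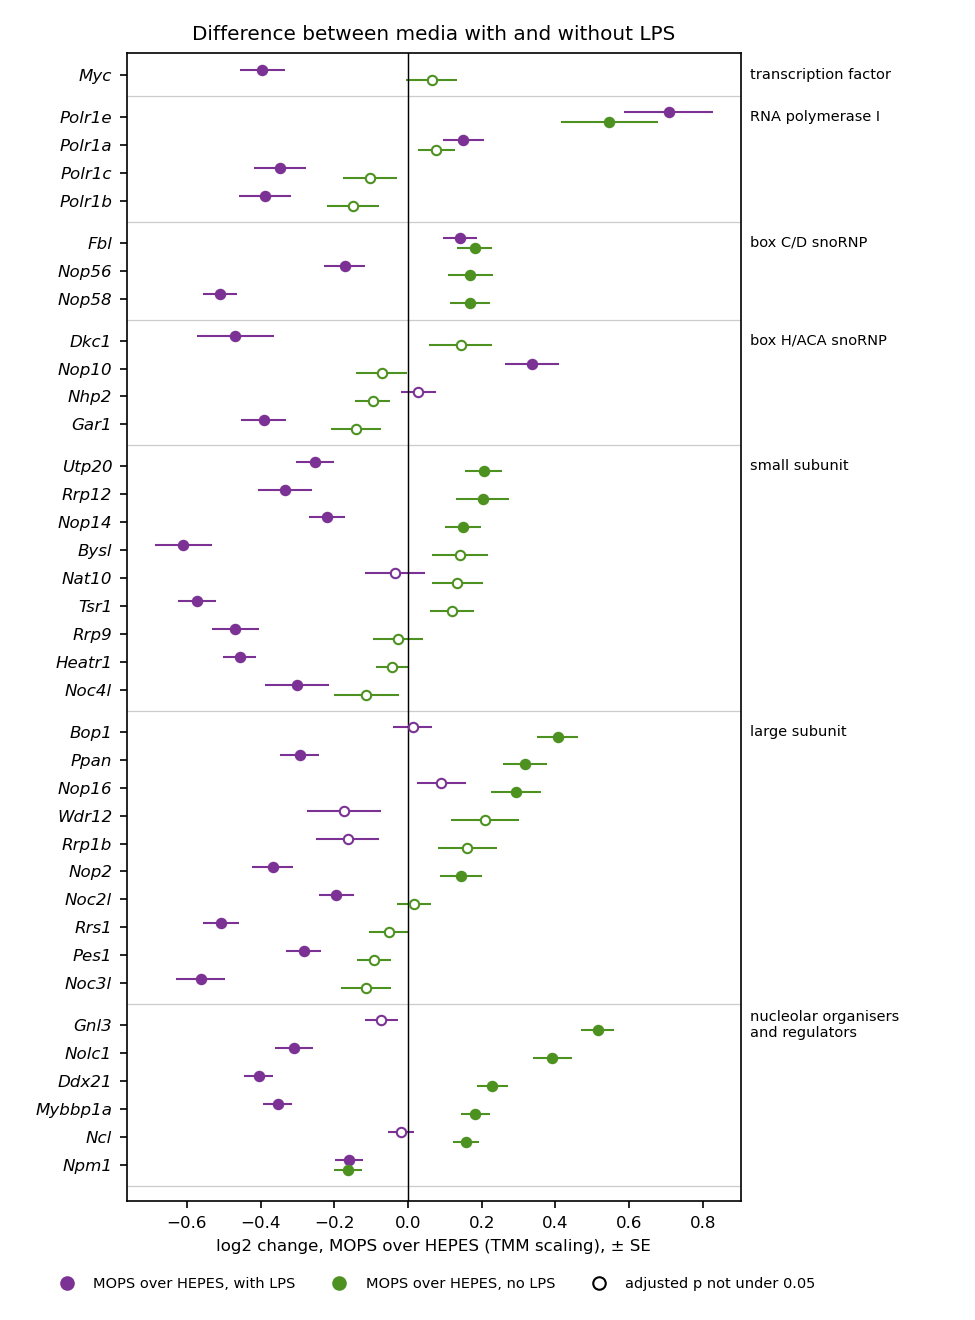
Difference between the media (x axis, log2 of MOPS over HEPES, ± SE) of each gene, grouped by role, with LPS (purple) and without LPS (green), with open points where the adjusted p was not under 0.05. Most purple points lie left of 0, down to -0.61 for Bysl, and most green points lie between -0.2 and 0.6.

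Other genes of the pathway, from lists that hold none of the 37, were counted in the same fits. Of 40 other 60S assembly genes 29 had a lower and 0 a higher LPS change in MOPS than in HEPES (median -0.39), and with library totals 27 and 2. Of 36 other small-subunit genes 24 had a lower and 1 a higher change (median -0.32), and with library totals 22 and 1. Of 13 exosome genes, which trim precursor RNA, 6 were lower and 1 higher, of 16 other RNA polymerase I genes 4 and 4, and of 21 RNA polymerase III genes 5 and 4. As shares, 72.5% of the 60S genes, 66.7% of the small-subunit genes, 46.2% of the exosome genes, 25% of the RNA polymerase I genes and 23.8% of the RNA polymerase III genes were lower, beside 70.3% of the 37 and 17.6% of all tested genes. The RNA polymerase I list includes Polr2e, Polr2f, Polr2h, Polr2k and Polr2l, subunits shared with other polymerases, so its share is not of RNA polymerase I alone.

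Within each medium, the LPS counts of these lists depended on the scaling. Of all tested genes, 34.1% were higher and 34.9% lower in MOPS and 35.6% and 41.2% in HEPES, and with library totals 14.4% and 65.5% in MOPS and 17.2% and 66.6% in HEPES. Of the 60S genes 33 were higher and 4 lower in MOPS, and 33 higher and 3 lower in HEPES, but with library totals 10 were higher and 12 lower in MOPS and 26 higher and 9 lower in HEPES. Of the small-subunit genes 30 were higher and 5 lower in MOPS, and 30 higher and 3 lower in HEPES, but with library totals 6 were higher and 22 lower in MOPS and 17 higher and 14 lower in HEPES. The other RNA polymerase I genes had 10 higher and 2 lower in each medium, which with library totals became 2 higher and 12 lower in MOPS and 4 higher and 8 lower in HEPES. Exosome genes had 6 higher and 2 lower in MOPS and 8 higher and 3 lower in HEPES, and with library totals 2 and 9 in MOPS and 5 and 8 in HEPES. RNA polymerase III genes had 5 higher and 10 lower in MOPS and 9 higher and 8 lower in HEPES, and with library totals 2 and 18 in MOPS and 2 and 17 in HEPES. Between the media, 15 of the 60S genes were higher and 0 lower in MOPS at rest, and under LPS 3 were higher and 28 lower. Of the small-subunit genes 12 were higher and 1 lower in MOPS at rest, and under LPS 0 were higher and 25 lower. Of all tested genes 24.3% were higher and 25.4% lower in MOPS at rest, and 26.9% each under LPS.

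Within these lists Rcl1, a processome protein, had 53.9 ± 4.60 CPM in MOPS with LPS and 16.4 ± 1.41 CPM in MOPS (SD, n = 3 each; 1.72 ± 0.079). In HEPES with LPS it had 112 ± 7.08 CPM, and in HEPES 12.5 ± 1.44 CPM (3.17 ± 0.078), and the difference between the changes was -1.45 ± 0.11, beyond that of any of the 37. Eif6, which keeps the 60S subunit from joining too early, rose by 1.74 ± 0.044 in MOPS and 2.02 ± 0.044 in HEPES, and Polr3d, a subunit of RNA polymerase III, by 1.32 ± 0.068 and 2.03 ± 0.064. Mphosph6, an exosome partner, was lower in MOPS with LPS than in HEPES with LPS (-0.78 ± 0.086), and so was Nle1 of 60S assembly (-0.74 ± 0.098), whereas Polr3gl of RNA polymerase III (1.12 ± 0.088) and Polr2e, a subunit shared by all 3 polymerases (0.45 ± 0.053), were higher. With LPS Polr2k, another shared subunit, rose by 0.77 ± 0.082 in MOPS, Taf1a, a subunit of the RNA polymerase I promoter factor SL1, by 1.04 ± 0.094 in HEPES, and Exosc7 of the exosome fell in MOPS (-0.74 ± 0.11). Each of these changes kept its sign and its call under all 4 scalings.

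At rest, leading genes of the lists were Rsl1d1 of 60S assembly (0.34 ± 0.045), Taf1d (0.49 ± 0.062) and Exosc4 (0.30 ± 0.092), all higher in MOPS, and Utp14b, which was lower (-2.24 ± 0.13). The exons of Utp14b share 244 bases with Acsl3 on the same strand, and those of Taf1d and Exosc4 share bases with genes on the opposite strand, so their counts are uncertain. The call of Exosc4 was lost without MOPS replicate 2 or HEPES replicate 4 (adjusted p = 0.0717 and 0.0692). Rrn3, the factor that recruits RNA polymerase I to its promoter, was chosen after its values were seen. It changed by 0.35 ± 0.048 in MOPS, where it turned to -0.17 with library totals, and by 0.88 ± 0.048 in HEPES, with a difference of -0.53 ± 0.068 between the media.

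Of 12 genes of the MYC network 10 were tested, and 7 were lower and 2 higher with LPS in each medium, beside 34.9% lower and 34.1% higher of all tested genes in MOPS and 41.2% and 35.6% in HEPES. With library totals 7 of the 10 were again lower in each, where 65.5% of all tested genes were lower in MOPS and 66.6% in HEPES. Mnt, a repressor that competes with MYC for MAX, fell to 15.0 ± 1.51 CPM in MOPS with LPS, against 134 ± 5.91 CPM in MOPS (-3.16 ± 0.067). It fell to 8.34 ± 1.42 CPM in HEPES with LPS, against 137 ± 3.10 CPM in HEPES (-4.04 ± 0.075). Its LPS change was less deep in MOPS, with a difference of 0.89 ± 0.11. Max, the partner of MYC and MNT, was lower in MOPS at rest (-0.41 ± 0.045) and was lower with LPS in MOPS (-0.23 ± 0.047) and in HEPES (-0.28 ± 0.046). Of the 10 genes, 5 had a higher and 1 a lower LPS change in MOPS, beside 21.9% and 17.6% of all tested genes.

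**Figure D5:**
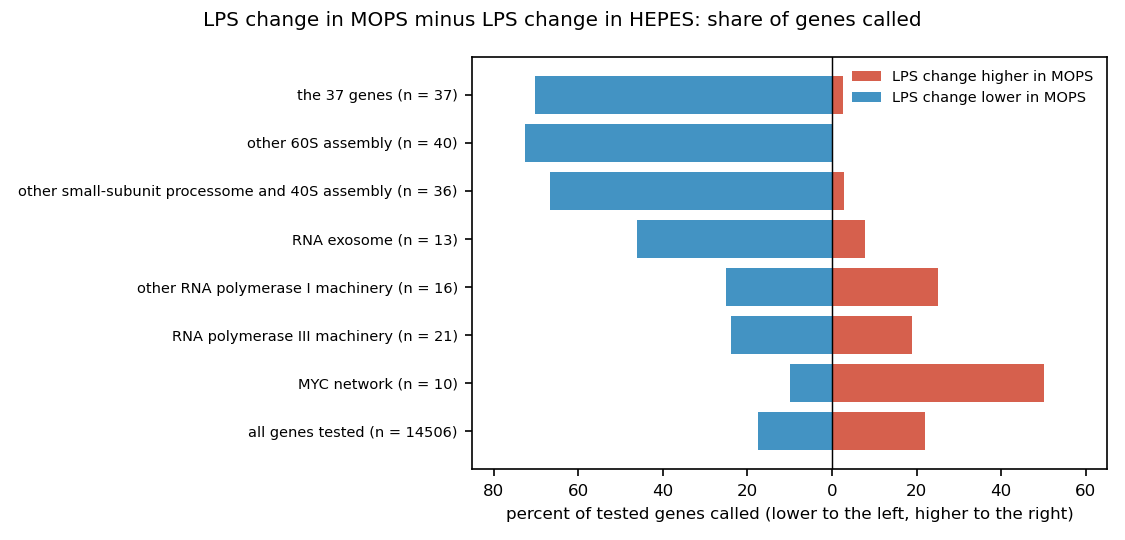
Percent of tested genes in each list (x axis) with a lower (blue, left) or higher (red, right) LPS change in MOPS than in HEPES, for the 37 genes, 6 other lists and all tested genes. The 37 genes and the 60S and 40S assembly lists lie at 66.7 to 72.5% lower, beside 17.6% of all genes, and the polymerase lists at 23.8 to 25%.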

How the data were processed

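Total RNA of resident peritoneal macrophages was sequenced in 12 libraries, 3 in each of 4 groups. Per the submitters' processing notes, CASAVA 1.8, HISAT2 2.0.5, featureCounts 1.5.0-p3 and the genome build mm10 were used, with no word on their settings or on strand. The authors' deposited file holds the authors' raw counts per gene and, beside them, the authors' FPKM values, which equal count over gene length and a scaled library size that was 0.999 to 1.03 times the TMM-scaled one. FPKM was used to compare levels between genes. Table totals were 20114613 to 24734853 counts per library. All fits started from the counts: edgeR 4.0.16 in R 4.3.3 with its default filter on low counts (14506 of 54532 genes kept), TMM factors (1.19 to 1.22 without LPS and 0.80 to 0.86 with LPS), 1 mean for each of the 4 groups over all 12 libraries with 8 residual degrees of freedom, robust quasi-likelihood tests and Benjamini-Hochberg adjusted p-values over all genes. The contrasts were LPS in each medium, the media with and without LPS, and the difference between the LPS changes. CPM were computed from the TMM-scaled library sizes, and standard errors were taken as the log2 change over the root of its F value. No 2 libraries agreed within sampling noise. Scripts were tested on simulated data.

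Alternatives were RLE and upper-quartile factors, library totals alone, other filters, DESeq2 1.42.0, fits of only the groups compared and leaving out each library. The 37 genes and the other lists were chosen with earlier results of these data known, so counts over them are descriptions. All 37 are named. From each other list the text names, with 1 exception that is not reported here, the called gene with the largest change in each comparison of groups, where the mean of the higher group reached 10 CPM or more. Gene positions are those of the table, of which 53585 of 54532 have the same start and end in GENCODE vM21, which was used for overlaps. Promoters are from RefSeq, GRCm38.p6. The authors' own comparison columns were not used here.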

Additional observations from a re-analysis of the deposited data

Results flagged for a closer look

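The LPS change differed between the media for 27 of the 37 genes by edgeR's quasi-likelihood test of the difference itself. Values below are the log2 change in MOPS minus that in HEPES. For 26 genes the value was negative. Among the small-subunit factors it was -0.75 for Bysl, -0.69 for Tsr1, -0.54 for Rrp12, -0.46 for Utp20, -0.44 for Rrp9, -0.41 for Heatr1 and -0.37 for Nop14. Among the large-subunit factors it was -0.61 for Ppan, -0.51 for Nop2, -0.45 for Rrs1, -0.45 for Noc3l, -0.39 for Bop1, -0.38 for Wdr12, -0.32 for Rrp1b, -0.21 for Noc2l and -0.19 for Pes1. The nucleolar organisers and regulators had -0.70 for Nolc1, -0.63 for Ddx21, -0.59 for Gnl3, -0.54 for Mybbp1a and -0.18 for Ncl. The snoRNP proteins had -0.68 for Nop58, -0.34 for Nop56, -0.61 for Dkc1 and -0.25 for Gar1, and Myc had -0.46. The value was positive for Nop10, at 0.41.

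The sign means different things in different genes. For Nop58, Rrs1, Tsr1, Ddx21 and Myc the level rose in both media and rose less in MOPS. For Dkc1 it fell in both and fell further in MOPS. For Bysl, Utp20, Rrp12 and Pes1 the change with TMM did not pass in MOPS and was a rise in HEPES. With library totals Utp20 and Pes1 lay below 0 in HEPES, and the calls of Bysl and Rrp12 there were lost. For Wdr12 and Rrp1b the change passed in neither medium in the fit used throughout, but did in some alternatives. The B cell markers, at 112 to 124 CPM summed in MOPS with LPS, 23.8 to 27.4 in HEPES with LPS, 189 to 198 in MOPS and 80.9 to 146 in HEPES, moved with the groups as well, and their part in these differences was not tested.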

How the results depend on the processing

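The difference between the LPS changes kept its side of the threshold, and where called its direction, in 631 of 666 member results over all alternatives. Of the others 20 passed no longer and 15 passed newly, and no called result was reversed. Results that passed in neither fit count as kept whatever their sign, such as Npm1, which ran from -0.069 to 0.075. The LPS changes depended most on the scaling. With library totals alone the members called with LPS in MOPS were 12 higher and 12 lower and in HEPES 9 lower, and 2 had a higher change in MOPS than in HEPES. All tested genes were then 2084 higher and 9506 lower in MOPS, and 2502 higher and 9666 lower in HEPES. The changes that turned below 0 in MOPS were -0.019 for Gnl3, -0.21 for Heatr1, -0.040 for Ncl, -0.27 for Noc2l, -0.046 for Noc4l, -0.029 for Nolc1, -0.12 for Nop10, -0.071 for Nop14, -0.10 for Npm1, -0.50 for Pes1, -0.15 for Polr1b, -0.36 for Rrp12 and -0.50 for Utp20. In HEPES they were -0.13 for Noc2l, -0.17 for Npm1, -0.38 for Pes1, -0.42 for Rrp1b, -0.11 for Utp20 and -0.40 for Wdr12. Among genes that are no members, Rrn3 turned to -0.17 in MOPS. Upper-quartile factors turned Pes1 to -0.12 and Utp20 to -0.12 in MOPS, with 7 members lower there, and gave 5 members lower in MOPS than in HEPES at rest. That the totals carry no composition factor is the construction of the first alternative, and beyond that the cause was not tested. Leaving out each library in turn gave 1 to 2 members lower in MOPS at rest and 2 to 4 members higher in MOPS with LPS than in HEPES with LPS. The alternatives for the other lists and for the genes named from them were chosen after seeing the data. Of 1128 counts of the lists, 91 moved by more than 1.5 times or to or from 0. No paired analysis was possible because the labels number the 12 samples in 1 run, so that no groups share a replicate number. Limits are the 3 libraries a group, the unknown origin of the replicates, a buffer that changes with the pH, 2 h of LPS as the single time, and Polr1e, Dkc1, Wdr12 and Rrp1b as the members with the fewest counts. Depth did not keep any member from being tested.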

Other observations

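Several of the 37 genes also carry snoRNAs, the guide RNAs of the complexes that other members build, inside their own annotated span on the same strand. In GENCODE vM21 this held for 7 of the 37, or 18.9%, and for 230 of the 12124 tested protein-coding genes found there, or 1.90%. Nop56 held 5, Nop58 4, Ncl and Gnl3 3 each, Ppan and Tsr1 2 each and Dkc1 1. These hosts include the member with the largest rise with LPS, Nop58 (2.22 in HEPES), and the member with the deepest fall, Dkc1 (-1.02 in MOPS). The snoRNAs themselves had 0 to 57 counts each over all 12 libraries, too few to follow. The number of hosts is a description of the annotation, and no relation between hosting and the response was tested.

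Exon overlap with a neighbour on the opposite strand, where the neighbour held counts of at least 10% of the member's, touched 10 members: Nop56 with Idh3b, Dkc1 with Mpp1, Nhp2 with Rmnd5b, Wdr12 with Carf, Bop1 with Mroh1, Rrp9 with Parp3, Heatr1 with Lgals8, Gnl3 with Pbrm1, Bysl with Ccnd3 and Tsr1 with Srr. The overlap was longest for Tsr1, at 1240 bases or 32.3% of its exons. Reads from overlapping exons cannot be assigned to a strand without the strand setting, which is not given in the sources used here.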
